A study of Mus musculus with 6 samples.

Results

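Complex I, the NADH:ubiquinone oxidoreductase of the inner mitochondrial membrane, was followed through 43 nuclear genes in the soleus of mice, a slow muscle of the calf. The genes were those with 1 gene symbol of the Nduf family in the array annotation (Ndufa, Ndufab, Ndufb, Ndufc, Ndufs, Ndufv and Ndufaf, followed by a digit), out of 30145 genes with such a feature. They comprised 36 structural subunit genes and 7 assembly factor genes (Ndufaf). Total RNA of 6 male mice aged 39 to 41 weeks was hybridised to whole-transcript arrays, 1 array per mouse. The 3 Control mice were labelled wild type, and the series title calls them littermates of the knockouts. The 3 cKO mice were labelled DMP1 Cre Mbtps1 knockout, so that Mbtps1, which encodes site-1 protease, was deleted in cells with Cre driven by sequence of Dmp1, a gene known for its expression in osteocytes of bone. The labels do not state whether Control mice carried the Cre or a floxed allele. The comparison addresses what an Mbtps1 deletion driven by Dmp1 sequence goes along with in a muscle.

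Complex I takes electrons from NADH, passes them through a flavin and a chain of iron-sulfur clusters to ubiquinone, and pumps protons across the inner membrane. It is L-shaped. The N module at the tip of the matrix arm oxidises NADH, the Q module at its base reduces ubiquinone, and the proximal and distal parts of the membrane arm pump protons. Slow and oxidative fibres, which make up much of the soleus, depend on it for sustained ATP supply. A set of core subunits is conserved from bacteria, the supernumerary subunits surround them, and assembly factors help to build the complex without staying in it. Of the structural genes, 33 could be placed, 11 in the N module, 5 in the Q module, 8 in the proximal and 9 in the distal membrane arm. The other 3 were Ndufa4, now counted as a subunit of complex IV, its paralog Ndufa4l2, and Ndufb4b, a relative of Ndufb4. Ndufb1, Ndufb4, Ndufa11 and Ndufaf8 had no feature with their symbol alone and are not among the 43.

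All 43 genes had 1 feature each and all passed the filter on dim signals. Control 1, Control 2 and cKO 1 carried mouse numbers 715 to 733, and Control 3, cKO 2 and cKO 3 numbers 776 to 780. The labels do not say what a range marks, so differences are also given within each range, where 1 array faces 2. The first principal component of all features tested (43.9% of the variance) separated these ranges, and cKO 1 stood apart on the second (22.3%) and had the lowest array weight, 0.254 against 0.589 to 4.01. Mbtps1 itself had log2 signals of 7.05 to 7.39 in Control and 7.11 to 7.77 in cKO, which overlap, and whole muscle need not show a deletion in Dmp1-expressing cells. Slow fibre markers differed in brightness. Atp2a2, at 19.67 to 19.84, lay close to the array maxima, and the slow myosin Myh7 was at 19.20 to 19.38. The dimmest were Tpm3 at 10.20 to 11.08 and Myl2 at 10.29 to 10.42. The fast fibre myosin Myh2 was at the ceiling on every array, at 19.77 to 19.93, so brightness does not tell the fibre types apart here.

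Promoter sequences were matched by symbol to the RefSeq table on GRCm38.p6, which held 38 of the 43 genes. Each window was 300 bases, 250 before to 50 after the start site, and both strands were searched for letters bound by regulators known for respiratory genes. The letters AANATGGCG, the core of YY1 sites, occurred in 7 of 38 complex I genes (18.4%) and in 2.76% of all 27025 genes with a promoter entry, and in 9.38% of 32 genes of complexes II to V. All 7 were structural subunit genes (21.9% of 32), and all carried the letters on their own strand. The stretches are shown because Yy1, the gene of the factor, had a lower mean in cKO. Each is 30 bases with the matched letters in capitals. The letters contain ATG, so a start codon and a YY1 site cannot be told apart from letters alone.
Ndufb11: cacagtcaccaacacAAAATGGCGacgaga
Ndufs6: tcaagggtcaccggcAAGATGGCGgcggtg
Ndufs4: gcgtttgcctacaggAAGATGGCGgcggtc
Ndufa7: cttcggagcggaaggAATATGGCGtccgct
Ndufa9: gaggcattgtgggagAAGATGGCGgccgcc
Ndufc1: cggagcctgcggaacAAGATGGCGccgtcc
Ndufs7: ctgaaggccgaggccAAGATGGCGgcgctg
They lie at chrX:20617816-20617845 (minus strand), chr13:73328435-73328464 (minus), chr13:114388045-114388074 (minus), chr17:33824612-33824641 (plus), chr6:126849101-126849130 (minus), chr3:51408919-51408948 (minus) and chr10:80249458-80249487 (plus) in that order. In 5 of the 7 the letters began 23 to 36 bases after the start site, and in the other 2 before it.

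NRF1 regulates many respiratory genes. Its letters, GCGCA and GCGC with 1 base of any kind between them, occurred in 7 of 38 complex I genes (18.4%) against 5.19% of all genes and 31.2% of 32 genes of complexes II to V. These were Ndufa5, Ndufa6, Ndufa8, Ndufs5, Ndufs6, Ndufaf4 and Ndufaf5. The ETS letters CCGGAAGT, bound by GABP, were in 1 gene, Ndufs3 (2.63% against 4.31% of all genes and 12.5% of complexes II to V), and the ERR letters TCAAGGTCA in none of the 38, against 0.466% of all genes and 6.25% of complexes II to V. No matched letters of one kind overlapped those of another in the windows printed here. Among genes with 1 promoter entry, Ndufb3 had the lowest difference between the genotypes and Ndufa8 the highest, so the 250 bases before their start sites are shown, with NRF1 letters in capitals.
Ndufb3: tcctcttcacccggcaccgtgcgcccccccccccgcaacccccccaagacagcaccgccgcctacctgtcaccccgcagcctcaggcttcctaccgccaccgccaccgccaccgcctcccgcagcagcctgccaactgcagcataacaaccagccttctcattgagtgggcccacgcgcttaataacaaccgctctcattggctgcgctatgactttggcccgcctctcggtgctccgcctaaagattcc
Ndufa8: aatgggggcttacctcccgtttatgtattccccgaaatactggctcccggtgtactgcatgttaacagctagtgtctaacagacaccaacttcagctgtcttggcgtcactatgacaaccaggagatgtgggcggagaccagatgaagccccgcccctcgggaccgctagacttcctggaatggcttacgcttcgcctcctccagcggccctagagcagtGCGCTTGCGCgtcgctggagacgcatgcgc
They lie at chr1:58586147-58586396 (plus strand) and chr2:36049339-36049588 (minus strand). The NRF1 match of Ndufa8 lies on the opposite strand and begins 30 bases before the start site.

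Complex I genes had slightly lower mean signals in cKO than in Control soleus, and no gene passed the test. Of the 36 structural genes, 31 (86.1%) had a lower mean in cKO, with a median difference of -0.15 log2 units (cKO minus Control) and a range from -0.65 to 0.33. Over all 33334 features tested, 34.2% had a lower mean and the median difference was 0.07. That background includes features far dimmer than these genes, whose mean level was 11.88 to 12.48 by array. It also holds a shift of cKO 1, where the median of all features with a value was 4.37, against 4.004 to 4.132 on the other arrays. After quantile normalization, which brings the median of all features to -0.0038, 33 of the 36 had a lower mean, with a median of -0.22, against 50.9% of all features, and after centring on array medians it was again 33, with -0.21, against 46.6%. In limma 0 of the 43 genes passed an adjusted p of 0.05, as did 0% of all features tested. At an unadjusted p under 0.05 there was 1 gene of the 43, with a lower mean, against 4.5% of all features in either direction and 0.807% in that one. With the mouse number range as a block 0 of the 43 reached it, against 6.01% of all features, 1.24% with a lower mean. No complex I gene reached it with a higher mean, against 3.7% of all features. All cKO arrays lay below all Control arrays for 2 of the 43, against 2.05% of all features, and above them for 0, against 8.95%. Bulk muscle RNA cannot tell fewer cells of a type from less RNA per cell.

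**Figure D1:**
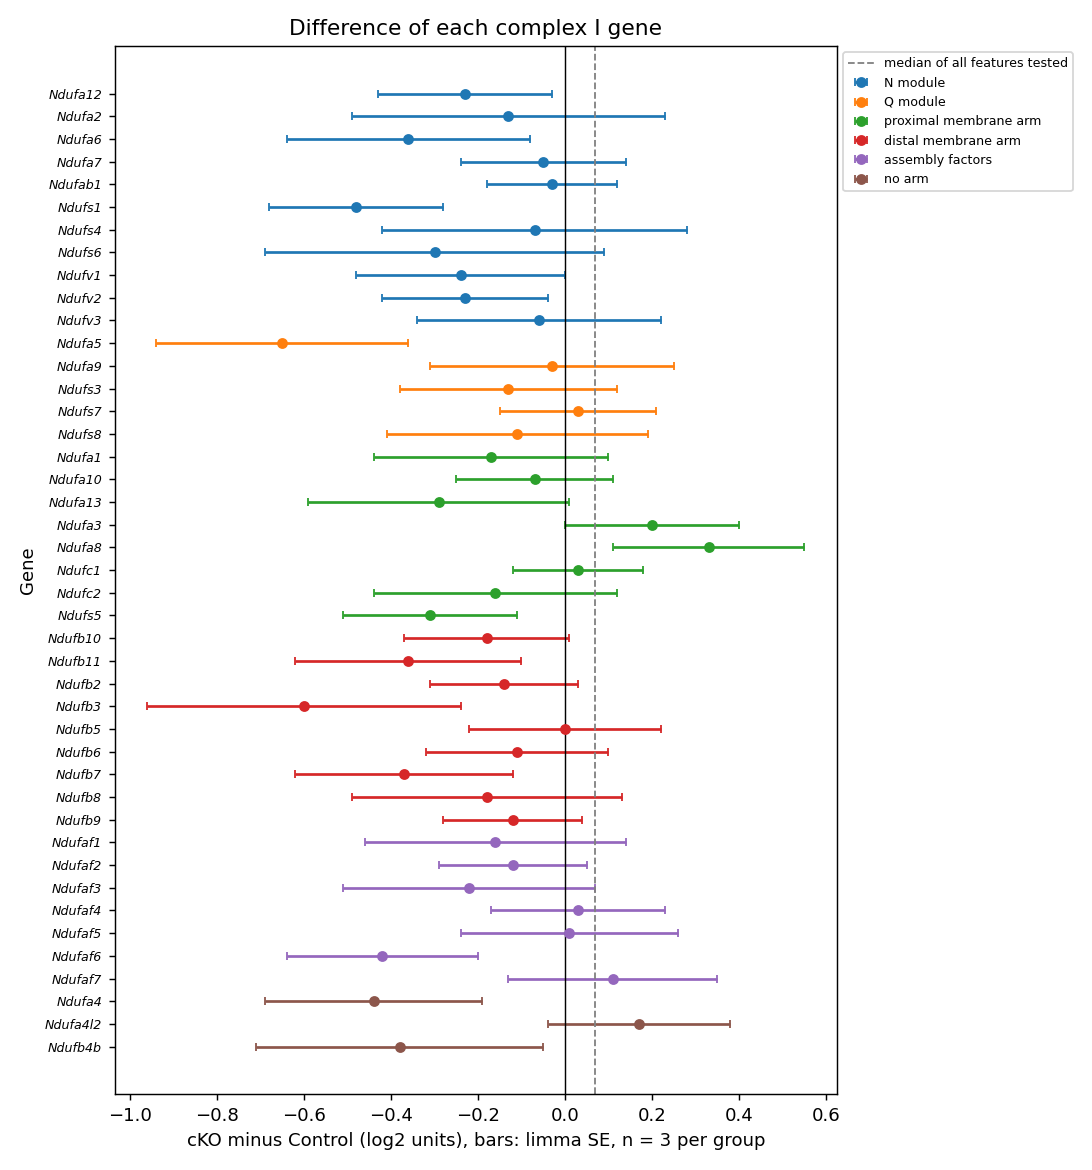
Difference between cKO and Control (log2 units, horizontal axis) for each of the 43 complex I genes (vertical axis), coloured by place in the complex; bars are limma standard errors with n = 3 per group, and the dashed line is the median of all features tested. Most points lie to the left of 0, from -0.65 for Ndufa5 to 0.33 for Ndufa8, and 0 of the genes passed an adjusted p of 0.05.

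The N module, which holds the NADH and flavin site, had all 11 genes lower on average in cKO, with a median difference of -0.23 and a range from -0.48 to -0.03. Without Control 2 the median was -0.05 with 6 of 11 lower, and among high mouse numbers it was -0.01, also with 6 of 11. Ndufs1 encodes the largest subunit of the complex, which carries several of its iron-sulfur clusters. On Control arrays 1 to 3 it read 15.13, 15.29 and 15.08 (log2 signal), and on cKO arrays 1 to 3 it read 14.92, 14.67 and 14.47. The groups did not overlap, and the difference was -0.48 log2 units (SE 0.20, limma unadjusted p = 0.0462, adjusted p = 0.999, 0.282 to 1 over the alternatives), a ratio of 0.717. Arrays of low mouse numbers gave -0.29 and those of high numbers -0.51. The unadjusted p was 0.0814 with the number range as a block and 0.168 without cKO 3, the highest over the alternatives. It also lay above 0.05 without any single Control array (0.0636 to 0.098) and without cKO 2 (0.12), with no filter (0.0578), with a robust eBayes (0.0556), with quantile normalization and the number range together (0.0617) and with the replicate block (0.0839).

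Ndufv1, which binds NADH and the flavin, was at 13.71, 13.95 and 13.36 in Control and 13.62, 13.52 and 13.18 in cKO, in array order. Its partner Ndufv2, an iron-sulfur protein, was at 12.40, 12.68 and 12.32 in Control and 12.36, 12.21 and 12.12 in cKO. Both overlapped between the groups, and their differences were -0.24 (SE 0.24) and -0.23 (SE 0.19). Ndufa6, an accessory subunit that anchors an acyl carrier protein, was at 13.17, 13.69 and 12.74 in Control and 13.01, 12.84 and 12.66 in cKO, a difference of -0.36 (SE 0.28). For each of these 3 genes the highest array was Control 2 and the lowest cKO 3, and limma's adjusted p was 0.999. Without Control 2 the differences were -0.10 for Ndufv1, -0.13 for Ndufv2 and -0.12 for Ndufa6. Ndufs4, an accessory subunit whose loss causes mitochondrial disease, shows how far single arrays spread. Its signal was 13.60, 14.29 and 13.37 in Control and 14.24, 13.52 and 13.30 in cKO, with Control 2 and cKO 1 both high, and the difference was -0.07 (SE 0.35). Ndufs6, a zinc-binding subunit, had the same 2 arrays on top, at 14.95 and 14.63 against 13.64 to 14.23 on the others. Its feature also lists the identifier of the pseudogene Ndufs6b, so their signals cannot be told apart. The other 5 genes of the module, Ndufv3, Ndufa2, Ndufa7, Ndufa12 and the acyl carrier protein Ndufab1, differed by -0.23 to -0.03, and all overlapped between the groups.

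In the Q module 4 of 5 genes were lower on average in cKO, with a median of -0.11, and without Control 2 it was 1 of 5, with 0.03. Ndufa5, an accessory subunit beside the ubiquinone-reducing core, was at 12.86, 13.04 and 12.45 in Control and 12.61, 12.07 and 11.73 in cKO. Its highest cKO array lay above its lowest Control array, so the groups overlapped. The difference of -0.65 (SE 0.29) was the lowest of all 43, a ratio of 0.639 (limma unadjusted p = 0.0649, adjusted p = 0.999, 0.271 to 1 over the alternatives). Low mouse numbers gave -0.34 and high ones -0.55, and the value was -0.44 both without cKO 3 and with the number range as a block. The unadjusted p was below 0.05 after quantile normalization (0.0212), after centring on array medians (0.029), with array weights (0.00637), with quantile normalization and the number range together (0.0212), without Control 3 (0.0379) and without cKO 1 (0.0184). Ndufa9, another accessory subunit of this arm, differed by -0.03 (SE 0.28), with cKO 1 the highest array at 15.81 against 14.91 to 15.56.

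The core subunits of the Q module differed little. Ndufs3 was at 12.37, 12.70 and 12.09 in Control and 12.57, 12.23 and 11.98 in cKO, a difference of -0.13 (SE 0.25) that turned positive without Control 2 or cKO 3. Ndufs7, which carries the last iron-sulfur cluster before ubiquinone, was at 12.35, 12.23 and 12.12 in Control and 12.36, 12.22 and 12.23 in cKO. Its difference of 0.03 (SE 0.18) became -0.04 after quantile normalization and -0.02 after centring on array medians. Ndufs8, which carries other iron-sulfur clusters, was at 15.13, 15.42 and 14.49 in Control and 14.59, 15.19 and 14.93 in cKO. Its difference of -0.11 (SE 0.30) was made of -0.69 among low and 0.57 among high mouse numbers, so that the sign differed between the ranges. All 3 genes overlapped between the groups.

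In the proximal membrane arm 5 of 8 genes were lower on average, with a median of -0.12, which was -0.02 without Control 2. Ndufa8, a subunit on the intermembrane space side, had the highest difference of all 43. It was at 14.37, 13.81 and 13.86 in Control and 14.50, 14.20 and 14.32 in cKO, where Control 1 lay above cKO 2 and cKO 3. The difference was 0.33 (SE 0.22, limma adjusted p = 0.999), with 0.41 among low and 0.40 among high mouse numbers. Ndufa3, a small membrane subunit, differed by 0.20 (SE 0.20), with 0.15 and 0.41 within the ranges. Ndufs5, a small subunit on the same side as Ndufa8, was at 7.28, 7.57 and 7.17 in Control and 7.02, 7.27 and 6.78 in cKO, a difference of -0.31 (SE 0.20) that was -0.20 without Control 2. The membrane subunits Ndufa1, Ndufa13 and Ndufa10 differed by -0.17, -0.29 and -0.07, and Ndufc1 by 0.03, or -0.11 after quantile normalization. Ndufc2 turned between the ranges, from 0.40 among low to -0.50 among high numbers.

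In the distal membrane arm all 9 genes were lower on average in cKO, with a median of -0.18, from -0.60 for Ndufb3 to a difference of -0.00 for Ndufb5. Without Control 2 the median was -0.10 with 7 of 9 lower, and among high mouse numbers it was 0.06 with 4 of 9. Ndufb3, a supernumerary membrane subunit, was at 13.11, 13.92 and 12.62 in Control and 12.27, 12.83 and 12.73 in cKO. Control 3 lay below cKO 2 and cKO 3, so the difference of -0.60 (SE 0.36) consisted of -1.25 within the low numbers and 0.17 within the high ones, and it was -0.25 without Control 2. Ndufb7, which faces the intermembrane space, was at 8.68, 9.17 and 8.38 in Control and 8.25, 8.63 and 8.24 in cKO. Its difference was -0.37 (SE 0.25), with -0.68 and 0.06 within the ranges and -0.16 without Control 2. Ndufb9, an accessory subunit at the far end of the arm, was at 19.35, 19.68 and 19.46 in Control and 19.34, 19.44 and 19.36 in cKO. That lies close to the array maxima of 19.765 to 19.932, where the ceiling of the scale could hide a difference. Its difference was -0.12 (SE 0.16). Ndufb11, a membrane subunit encoded on the X chromosome, differed by -0.36 (SE 0.26), or -0.22 without Control 2, with cKO 1 its lowest array at 12.14. Ndufb2, Ndufb6, Ndufb8 and Ndufb10 differed by -0.18 to -0.11.

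**Figure D2:**
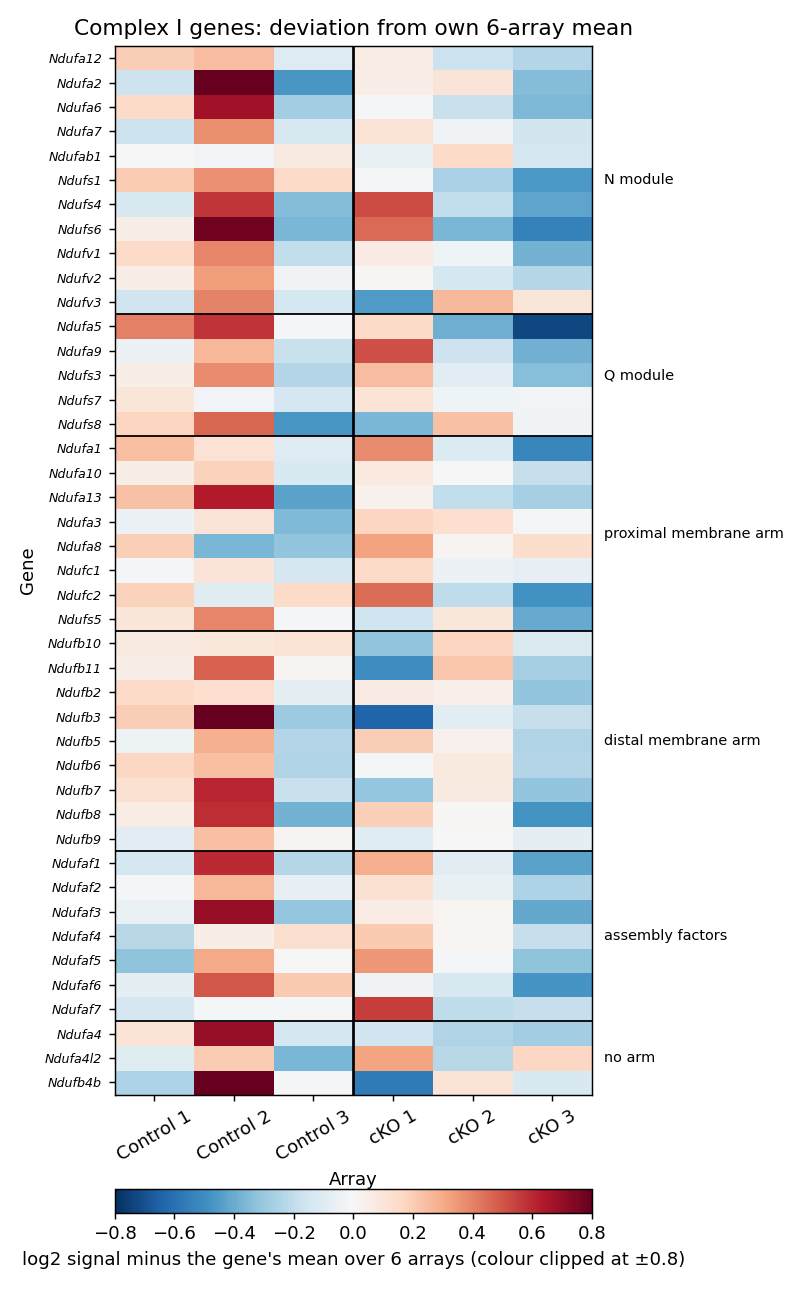
Signal of each complex I gene (rows, grouped by place in the complex) on each array (columns), as the log2 signal minus that gene's mean over the 6 arrays; red is higher, blue lower, and colours are clipped at ±0.8. Control 2 is the highest array for 29 of the 43 genes and cKO 3 the lowest for 25.

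The size of the subunits' median difference depended on single arrays, while its sign did not turn when any 1 array was left out. Control 2 was the highest array for 25 of the 36 structural genes (69.4%), against 13.2% of all features tested, and cKO 3 the lowest for 20 (55.6%), against 19.7%. The array cKO 1 was the highest for 8 of them, against 46.4% of all features, and the lowest for 6, against 4.89%. Averaged over the 36 genes, the deviation from each gene's mean over the 6 arrays was 0.06, 0.36 and -0.17 log2 units on the Control arrays and 0.03, -0.04 and -0.25 on the cKO arrays. Control 1 thus lay close to cKO 1, and Control 3 below both cKO 1 and cKO 2. Without Control 2 the median difference was -0.04 and 21 of 36 genes were lower on average, against 37.7% of all features. Without cKO 3 it was -0.07, also with 21 of 36, while without Control 3 or cKO 1 it was -0.27 and -0.24. Within the low mouse numbers the median was -0.17 with 23 of 36 lower (20.3% of all features), and within the high numbers 0.01 with 16 of 36 lower (56.5% of all features). Of the 36, 12 were lower in both ranges, against 11.3% of all features. Ndufs1 and Ndufa5 were among these 12, as was Ndufa4.

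**Figure D3:**
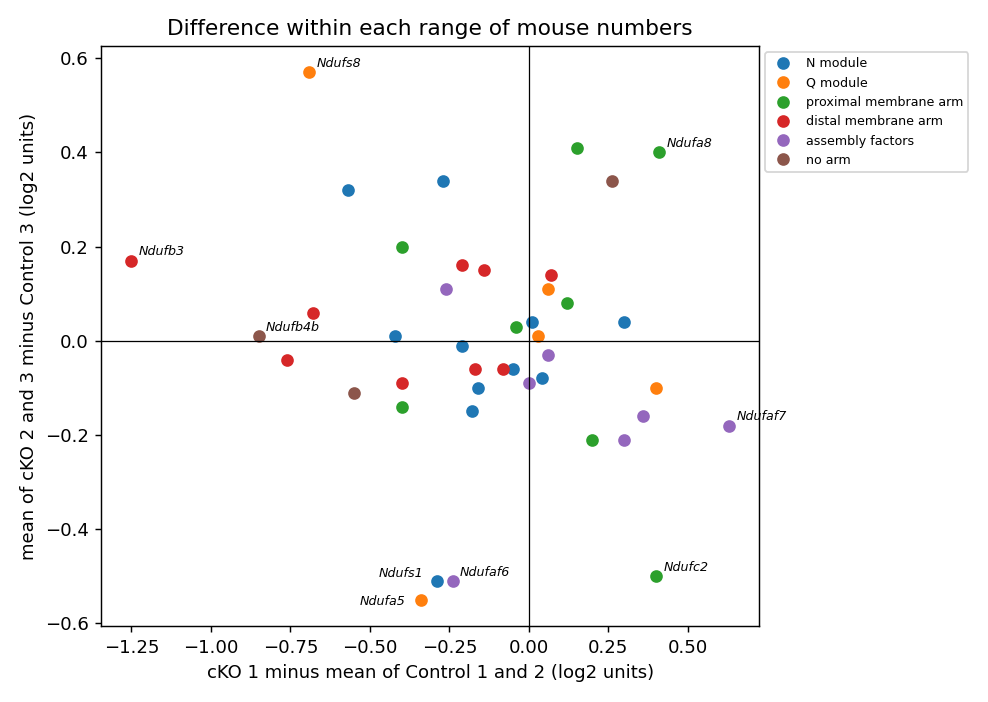
Difference within the low mouse numbers (cKO 1 minus the mean of Control 1 and Control 2, horizontal axis) against that within the high numbers (mean of cKO 2 and cKO 3 minus Control 3, vertical axis), both in log2 units, with 1 point per complex I gene. Ndufa5, Ndufs1 and Ndufaf6 are negative on both axes and Ndufa8 is positive on both, while Ndufs8, at -0.69 and 0.57, changes sign.

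The assembly factors divided, with 4 of 7 lower on average in cKO and a median of -0.12, which was -0.20 with 7 of 7 lower after quantile normalization. Ndufaf6, needed early in assembly, had the lowest unadjusted p of the 7. It was at 7.86, 8.44 and 8.15 in Control and 7.91, 7.81 and 7.47 in cKO, where cKO 1 lay just above Control 1. The difference was -0.42 (SE 0.22, limma unadjusted p = 0.0965, adjusted p = 0.999), with -0.24 among low and -0.51 among high numbers. Ndufaf3, which acts on the Q module together with Ndufaf4, was at 7.57, 8.32 and 7.31 in Control and 7.68, 7.64 and 7.21 in cKO. Its difference of -0.22 (SE 0.29) became 0.07 without Control 2. Ndufaf4 differed by 0.03 (SE 0.20) and turned sign after quantile normalization, at -0.04.

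Other assembly factors behaved likewise. Ndufaf1, which helps to build the membrane arm, differed by -0.16 (SE 0.30), and Ndufaf2, a late-acting relative of the subunit Ndufa12, by -0.12 (SE 0.17). Ndufaf5 and Ndufaf7, enzymes that modify core subunits, differed by 0.01 (SE 0.25) and 0.11 (SE 0.24). For Ndufaf7 cKO 1 stood alone at 8.46, the others lying between 7.70 and 7.89, and the difference was -0.02 after quantile normalization. Without Control 2 the median of the 7 was 0.07, without cKO 3 it was 0.02, and with the number range as a block 0.01. The gene now called Ndufaf8, carried in the array annotation as 1810043H04Rik, differed by 0.22 (SE 0.22).

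Assembly factors outside the Nduf family included Ecsit and Acad9, which work with Ndufaf1, and Tmem126b of the same machinery. Of 9 measured, 5 were lower on average, against 34.2% of all features, with a median of -0.02. In limma 0 passed an unadjusted p of 0.05, against 4.5% of all features. Tmem126b was at 9.12, 9.59 and 9.36 in Control and 9.15, 8.95 and 8.81 in cKO, a difference of -0.39 (SE 0.20). Ecsit was at 10.50, 10.58 and 10.34 in Control and 10.87, 10.80 and 10.61 in cKO. All its cKO arrays lay above all its Control arrays, as for 8.95% of all features. Its difference was 0.29 (SE 0.18, limma adjusted p = 0.999). The mitochondrially encoded subunits, which form the proton-pumping core, could be followed for ND2, ND3 and ND6. ND3 sat at the ceiling on all arrays, and ND2 lay close to it, at 19.01 to 19.22. ND6 was at 17.38, 16.96 and 16.19 in Control and 17.70, 16.19 and 15.90 in cKO, higher on the 3 arrays with low mouse numbers whatever the genotype.

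Of the 3 Nduf genes outside the arms, Ndufa4 was at 17.43, 18.02 and 17.18 in Control and 17.17, 17.08 and 17.04 in cKO. The groups did not overlap, but Control 3 and cKO 1 differed by little, and the difference of -0.44 (SE 0.25, limma unadjusted p = 0.117, adjusted p = 0.999) was -0.20 without Control 2. Ndufa4l2, known as a hypoxia-induced paralog, was dim on these arrays, at 5.75, 6.05 and 5.48 in Control and 6.16, 5.62 and 6.01 in cKO, which overlap. Its difference of 0.17 (SE 0.21) was -0.02 with array weights. Ndufb4b was at 16.03, 17.11 and 16.27 in Control and 15.72, 16.39 and 16.16 in cKO, a difference of -0.38 (SE 0.33) that was -0.06 without Control 2 and -0.05 with array weights. Its identifier is also listed by the feature of Ndufb4, which was left out because it names several genes.

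Complexes II to V were set beside complex I. Of their 40 genes 28 (70%) were lower on average, against 34.2% of all features, with a median difference of -0.04. At a limma unadjusted p under 0.05 there was 1 of the 40, against 4.5% of all features. By complex, 2 of 4 genes of complex II, 8 of 9 of complex III, 9 of 13 of complex IV and 9 of 14 of complex V were lower, with medians of -0.04, -0.16, -0.05 and -0.02. The gene at that p was Atp5d, a subunit of the ATP synthase, at 11.71, 11.42 and 11.45 in Control and 12.02, 11.96 and 12.04 in cKO. The groups did not overlap, and the difference was 0.48 (SE 0.18, limma unadjusted p = 0.0348, adjusted p = 0.999). Its unadjusted p in limma ran from 0.0115 to 0.19 over the alternatives and was 0.149 after quantile normalization. Atp5d had 2 features and Atp5l 3, and the feature with the highest mean was used. All cKO arrays lay above all Control arrays for 1 of the 40, against 8.95% of all features, and below them for 3, against 2.05%. In the complex III subunit Uqcr10 the difference was -0.78 (SE 0.50), with cKO 1 the lowest array at 9.47 and Control 2 the highest at 11.84, and it was -0.33 without Control 2. The succinate dehydrogenase subunits Sdha and Sdhc differed by -0.14 (SE 0.16) and 0.17 (SE 0.23), and Uqcrq of complex III by -0.34 (SE 0.36). Cox7a1 and Cox5b of complex IV differed by -0.42 (SE 0.27) and -0.42 (SE 0.32), and Atp5l of the ATP synthase by -0.44 (SE 0.24), none past an adjusted p of 0.05 in limma. Mean deviations of complexes II to V together were 0.02, 0.30 and -0.21 on the Control arrays and 0.00, 0.04 and -0.15 on the cKO arrays. Control 2 was thus the highest array and Control 3 and cKO 3 the lowest here as in complex I. Whether complex I differs from complexes II to V was not tested.

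**Figure D4:**
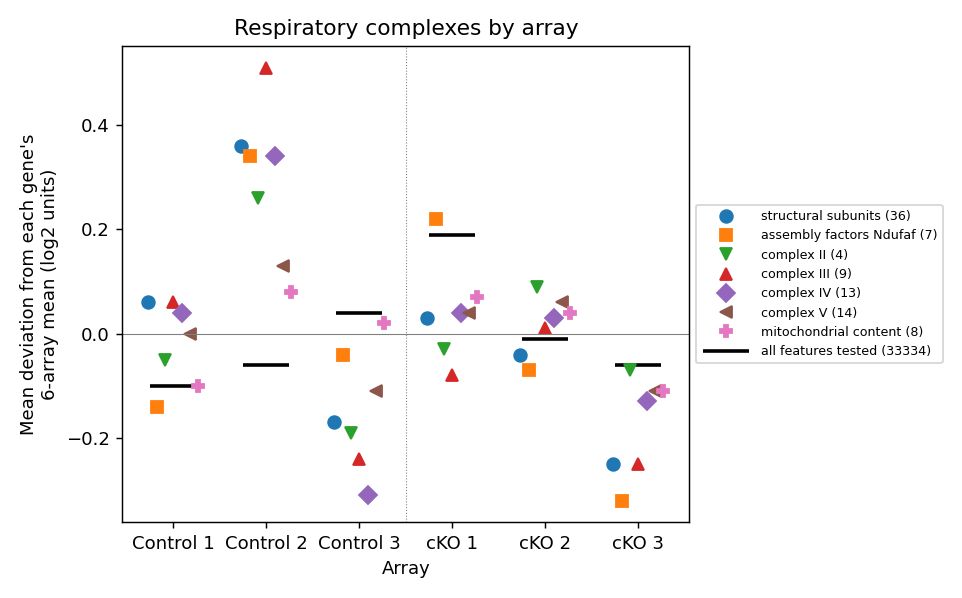
Mean deviation from each gene's own mean over the 6 arrays (log2 units, vertical axis) on each array (horizontal axis) for the complex I subunits and assembly factors, complexes II to V and mitochondrial content genes, with gene numbers in the key; black bars are all 33334 features tested. Complex I subunits reach 0.36 on Control 2 and -0.25 on cKO 3, where all features lie at -0.06 on both.

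Genes of general mitochondrial content (citrate synthase, porins, import and cristae proteins and a matrix chaperone) had a median difference of 0.01. Of these, 4 of 8 were lower on average, against 34.2% of all features. Cs, citrate synthase, was at 17.58, 17.58 and 17.59 in Control and 17.30, 17.95 and 17.93 in cKO, a difference of 0.15 (SE 0.22). Regulators of mitochondrial gene expression had a median of 0.11 over 9 genes. In limma 1 of the 9 reached an unadjusted p under 0.05, against 4.5% of all features. That gene, Yy1, was at 9.80, 9.81 and 9.74 in Control and 8.78, 9.23 and 9.22 in cKO. All its cKO arrays lay below all its Control arrays, as for 2.05% of all features. The difference was -0.71 (SE 0.19, limma unadjusted p = 0.00925, adjusted p = 0.999, 0.268 to 1 over the alternatives). Its unadjusted p ran from 0.00426 to 0.0312 over the alternatives, and the values were -1.03 among low and -0.51 among high numbers. The 7 subunit genes with the YY1 letters, such as Ndufs4 and Ndufs7, had a median difference of -0.05, from -0.36 to 0.03. The 25 structural genes with a promoter entry but without the letters had a median of -0.18, from -0.65 to 0.33. The letters do not tell YY1 sites from start codons, and a link between Yy1 and these genes was not tested. Ppargc1a, the coactivator PGC-1alpha, spread widely within both groups, at 12.46, 14.26 and 12.01 in Control and 11.67, 15.02 and 12.75 in cKO.

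Markers of other cell types and fibre types varied on the same arrays. Over all features tested, 34.2% had a lower mean in cKO. Tendon markers were higher in cKO for 12 of 12 genes, of which 10 passed the filter, with list means of 5.32 to 5.99 in Control and 6.45 to 6.62 in cKO. Their median difference was 1.19 among low mouse numbers and 0.40 among high ones, where 2 of 12 were lower. Macrophage markers had list means of 5.53 to 6.08 in Control and 5.76 to 6.49 in cKO, with 1 of 8 lower, and fibroblast markers 9.46 to 10.42 and 9.59 to 10.64, with 3 of 7 lower. Endothelial markers had list means of 9.0 to 10.09 in Control and 9.27 to 9.48 in cKO, with 7 of 8 lower. Without Control 1 it was 4 of 8, and among high mouse numbers 1 of 8. Adipocyte and Schwann cell markers were lower for 2 of 7 and 2 of 4, and the erythroid list had 1 gene, Alas2, at -0.42. Slow fibre genes had list means of 16.38 to 16.52 in Control and 16.51 to 16.59 in cKO. Fast fibre genes ran from 15.96 to 16.69 in Control and from 16.14 to 17.61 in cKO, with cKO 2 on top. On cKO 3, where 25 of the 43 complex I genes had their lowest signal, the tendon, fibroblast and macrophage lists had their highest means. So did the slow fibre list, at 16.59, with cKO 3 the highest array for 5 of its 11 genes, against 9.4% of all features. That mean includes Csrp3, at 16.40 to 16.64 in Control and 17.12 to 17.65 in cKO, a difference of 0.90. The median difference of the 11 slow fibre genes was 0.07, with 2 lower in cKO. The part of these cell types in the complex I signals was not tested.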

How the data were processed

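Each of 6 arrays, 1 per mouse, was hybridised with biotinylated cDNA made from 100 ng total RNA, per the labels' protocols. The values deposited by the authors were read as log2 signals from their range of 1.92 to 19.93; their log base, background correction, summarisation, normalization and genome build are not given in the sources used here. Of 72688 features 6732 held no value. Features above the median of their array on at least 3 arrays (33334) were tested with limma 3.58.1 in R 4.3.3 (lmFit, eBayes with intensity trend), two-sided, Benjamini-Hochberg over all of them. Repeated symbols of a feature counted as 1. P-values set the difference of group means against the spread between the 3 mice of a group, moderated across features. Both groups held mice of both number ranges. That spread thus includes any difference between the ranges, except where the range was a block. A gene at the ceiling on all arrays was given no fold.

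Members and lists were chosen with earlier results of these data known. Signals on every array are given for the core subunits and for the 2 smallest p in each arm and among assembly factors. They are also given for the brightest and dimmest gene and for genes outside the arms. At least the difference is given for 2 genes per related list. Ndufs4, Ndufs6, ND6, Cs, Yy1, Ppargc1a, Csrp3, Atp2a2 and Tpm3 and those given by their difference alone were named after their values were seen. Array number limits the precision. Simulated arrays with known changed features were used as a check: 15% of 2-fold and 66% of 4-fold changes passed over 33334 features. Each feature varied on its own there, without the shifts shared by many features on the real arrays. All 43 genes differed by less than 2-fold, so the check does not cover differences of their size. Python 3.11.15, pandas 2.3.3 and matplotlib 3.10.9 were used.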

Additional observations from a re-analysis of the deposited data

How the results depend on the processing

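The alternatives were quantile normalization, median centring, the filter left out or raised to the 75th percentile, a robust eBayes or one without trend, array weights, replicate or mouse number range as a block, each array left out, and averaging the features of each gene, which changed nothing because each had 1. Quantile normalization with the number range as a block was added after the data were seen. None of the 43 genes passed under any of them; the lowest adjusted p was 0.271. Features past an adjusted p of 0.05 numbered 0 to 14 with 1 array left out (14 without Control 3), and those at an unadjusted p under 0.05, 1501 as reported, 963 to 3142 (3142 without Control 3, 963 without cKO 3); with array weights there were 4256. The median difference of the structural subunits stayed negative, from -0.27 to -0.04 with 1 array left out, -0.06 with the number range as a block and -0.22 after quantile normalization. That of the assembly factors ran from -0.22 to 0.07 with 1 array left out and was 0.01 with the number range as a block. Signs also turned for Ndufa4l2 (-0.02 with array weights), Ndufs3 (0.02 with the number range, 0.03 without Control 2 and 0.01 without cKO 3, -0.28 to 0.03 over left-out arrays), Ndufs7 (-0.04 after quantile normalization, -0.02 after centring, -0.05 with array weights, -0.02 with quantile normalization and the number range, -0.02 and -0.01 without Control 3 and cKO 1, -0.02 to 0.09 over left-out arrays), Ndufs8 (0.03 with array weights, 0.10 and 0.05 without Control 2 and cKO 1, -0.37 to 0.10 over left-out arrays) and Ndufaf3 (0.07 without Control 2, -0.43 to 0.07 over left-out arrays). The cause was not tested. Same-numbered arrays did not pair (correlations of their deviations 0.128, -0.204 and 0.205), and with the replicate block 0 of the 43 genes had an unadjusted p under 0.05, and 1322 of all features.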
